A study of Mus musculus with 8 samples.

Results

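The genes described here are 10 nuclear regulators of mitochondrial genome expression, taken by symbol from a table of 25413 mouse genes. They are Ppargc1a, Ppargc1b, Nrf1, Tfam, Tfb2m, Polrmt, Polg, Twnk, Lrpprc and Slirp. All 10 had a count in the table, and all 10 passed the filter on low counts that left 13716 genes for testing. The 10 symbols were chosen by reference to the counts of the mitochondrially encoded (mt-) genes in these same libraries, so the mt- values are given as a description with no test. The choice set no threshold on the 10 genes themselves, so there are no genes just inside or outside it. Polyadenylated RNA had been sequenced from spheroids, which are rounded cell aggregates grown in culture. There were 4 groups with 2 libraries each: EpH4-AS exposed to PM2.5, EpH4-AS untreated, EpH4 exposed to PM2.5 and EpH4 untreated. EpH4-AS carries the genotype label AS-transformed and EpH4 the label WT. PM2.5 is fine airborne particulate matter, whose dose and exposure time the labels do not give, and each genotype is represented by 1 cell line.

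Mitochondria keep a small genome of their own, and every protein that copies, transcribes and processes it is encoded in the nucleus. Polrmt, the mitochondrial RNA polymerase, starts transcription with Tfam and Tfb2m, and both strands are transcribed into long precursors that are cut into single RNAs. Nrf1 and the GABP factor bind promoters of many nuclear genes for mitochondrial proteins, and the coactivators Ppargc1a and Ppargc1b raise the activity of such factors. Polg and Twnk are the polymerase and the helicase that replicate mitochondrial DNA, and the Lrpprc and Slirp proteins form a complex that stabilises mitochondrial mRNAs.

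Promoter sequences are shown for 4 genes because their transcripts took different courses between the lines: Ppargc1a was without a count in EpH4-AS, Tfb2m was lower there, and Polrmt and Polg were higher. Each window runs from 250 bases before to 50 bases after the annotated start, from RefSeq on GRCm38.p6, read 5′ to 3′ on the strand of the gene. Capitals mark the NRF-1 core GCGCATGC and the GABP core CCGGAAG on either strand.
Ppargc1a, chr5:51567676-51567975, minus strand: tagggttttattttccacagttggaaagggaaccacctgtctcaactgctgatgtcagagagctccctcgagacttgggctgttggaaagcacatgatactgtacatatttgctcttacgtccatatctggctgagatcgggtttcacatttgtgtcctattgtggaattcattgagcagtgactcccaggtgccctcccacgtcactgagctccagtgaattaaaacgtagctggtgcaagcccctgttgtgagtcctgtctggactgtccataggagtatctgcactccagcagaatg
Tfb2m, chr1:179546227-179546526, minus strand: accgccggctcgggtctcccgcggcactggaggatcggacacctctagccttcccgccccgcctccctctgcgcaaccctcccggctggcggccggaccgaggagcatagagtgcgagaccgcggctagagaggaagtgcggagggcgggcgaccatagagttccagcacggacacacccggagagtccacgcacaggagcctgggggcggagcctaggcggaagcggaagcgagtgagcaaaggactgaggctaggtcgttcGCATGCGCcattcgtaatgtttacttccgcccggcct
Polrmt, chr10:79746532-79746831, minus strand: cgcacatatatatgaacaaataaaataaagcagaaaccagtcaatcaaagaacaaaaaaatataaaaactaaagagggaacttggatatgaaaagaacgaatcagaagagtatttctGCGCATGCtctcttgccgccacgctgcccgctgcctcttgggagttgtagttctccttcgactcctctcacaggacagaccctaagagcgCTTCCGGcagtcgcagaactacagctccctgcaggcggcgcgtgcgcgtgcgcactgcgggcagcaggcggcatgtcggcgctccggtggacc
Polg, chr7:79466224-79466523, minus strand: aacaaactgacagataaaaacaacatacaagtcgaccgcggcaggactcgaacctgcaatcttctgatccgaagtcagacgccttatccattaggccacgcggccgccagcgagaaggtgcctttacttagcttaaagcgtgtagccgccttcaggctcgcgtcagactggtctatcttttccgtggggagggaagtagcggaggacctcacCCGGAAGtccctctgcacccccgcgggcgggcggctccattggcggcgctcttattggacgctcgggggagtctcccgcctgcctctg
In the windows shown, the Tfb2m window held 1 NRF-1 core, the Polrmt window held 1 NRF-1 core and 1 GABP core that did not overlap, and the Polg window held 1 GABP core. The Ppargc1a window held neither of them. RefSeq windows were matched by symbol for 9 of the 10 genes, 11 windows in all, and Ppargc1b had none. An NRF-1 core was present for 2 of these 9 genes (Tfb2m and Polrmt), against 2.71% of 32851 promoter windows of the same length. A GABP core was present for 5 of 9 genes (Tfam, Polrmt, Polg, Twnk and Slirp), against 8.86% of all windows. The GC box GGGCGG, searched on both strands, was present for 6 of 9 genes, against 35.7% of all windows. The Ppargc1a window held 5 CpG dinucleotides, where the median of all windows was 7 and the Polrmt window held 21, the Polg window 26 and the Tfb2m window 32. Nrf1 and Twnk had 2 windows each. Counted by window, the NRF-1 core, the GABP core and the GC box were present in 2, 5 and 6 of 11 windows. The windows of all genes were not matched to these 11 for CpG content. The matches describe letters in the windows and were not tested as binding sites.

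The libraries differed by line in ways that touch every comparison between lines. Total counts per library ran from 15393256 to 18334052 in EpH4-AS and from 24608176 to 27765982 in EpH4. Reads assigned to a gene but not counted in its exons are called reads outside exons here. They made up 3.51 ± 0.118% of gene reads in EpH4-AS with PM2.5 and 3.47 ± 0.107% in untreated EpH4-AS (SD, n = 2). In EpH4 they made up 11.96 ± 0.741% with PM2.5 and 11.8 ± 0.706% untreated. Over the libraries this share ran from 0% to 0.196% for mt-Cytb and from 27.6% to 38.3% for mt-Atp8, which overlaps mt-Atp6. The share may therefore hold reads on overlapping genes as well as in introns, and its make-up was not tested. The labels name mammary epithelial cells, but all 7 markers of luminal mammary epithelium, Krt8, Krt18, Epcam and Cdh1 among them, were below 1 CPM in all 4 groups. Krt19 and Cldn4 were at 0 counts in all 4 groups. The summed level of all 7 luminal markers was 0.642 to 0.651 CPM in EpH4-AS with PM2.5 and 0.506 to 0.843 CPM in untreated EpH4-AS. It was 0.419 to 0.616 CPM in EpH4 with PM2.5 and 0.327 to 0.398 CPM in untreated EpH4. Of 7 fibroblast or mesenchymal markers, 5 or 6 reached 1 CPM in each group, with summed levels between 3521 and 4841 CPM. Most of this sum was Vim, at 3653 ± 207 CPM in untreated EpH4-AS against 2068 ± 29.5 CPM in untreated EpH4, and single markers differed either way between the lines. Untreated EpH4-AS had 34.4 ± 2.99 CPM of Col1a2 against 1067 ± 86.9 CPM in untreated EpH4, 59.2 ± 1.43 CPM of Pdgfra against 362 ± 0.298 CPM, and 45.1 ± 0.262 CPM of Col3a1 against 0.749 ± 0.328 CPM. The adipocyte list summed to 49.3 to 54.1 CPM in EpH4-AS against 0.199 to 0.411 CPM in EpH4, nearly all of it Cidec, with Adipoq, Plin1 and Lep below 1 CPM. The leukocyte list summed to 37.6 to 41.5 CPM in EpH4-AS against 172 to 220 CPM in EpH4, from Cd68 with Ptprc below 1 CPM, and the basal epithelial list to 2.33 to 4.03 CPM against 4.49 to 9.54 CPM. Endothelial markers were below 1 CPM. The part of these differences in the results was not tested. Nothing in the labels ties the 2 libraries of a group to separate cultures. The p values below therefore rest on the spread among libraries that may be technical replicates.

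The mitochondrially encoded mRNAs were far lower in EpH4-AS than in EpH4, and in EpH4 they were higher with PM2.5. The 13 mt- genes of the table, which are the protein-coding genes of the mitochondrial genome, took 0.270% and 0.302% of all counts in the 2 libraries of EpH4-AS with PM2.5. They took 0.219% and 0.246% in untreated EpH4-AS, 4.23% and 5.03% in EpH4 with PM2.5, and 2.72% and 2.21% in untreated EpH4. No library of one group overlapped the range of another group. The mean share was 0.286 ± 0.0229% in EpH4-AS with PM2.5 against 0.233 ± 0.0193% in untreated EpH4-AS, a ratio of 1.23 (SD, n = 2). In EpH4 it was 4.63 ± 0.563% with PM2.5 against 2.47 ± 0.364% untreated, a ratio of 1.88. The share of untreated EpH4-AS was 10.6-fold lower than that of untreated EpH4, and with PM2.5 the share of EpH4-AS was 16.2-fold lower. In bulk RNA, a change in the number of cells of a kind and a change in RNA per cell cannot be told apart.

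**Figure D1:**
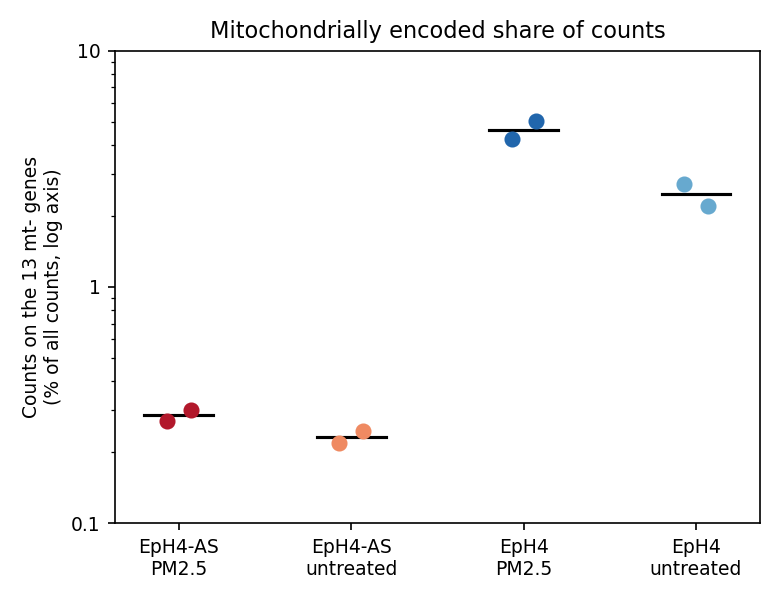
Share of all counts on the 13 mt- genes in each library, in percent on a log axis, with a bar for the mean of each group of 2 libraries. The EpH4-AS libraries lie between 0.219% and 0.302%, and the EpH4 libraries between 2.21% and 5.03%.

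The lower level in EpH4-AS was uneven along the mitochondrial genome. Between untreated lines the log2 ratio of mean CPM ran from -5.86 for mt-Nd4l to -1.03 for mt-Nd1. The median over the 13 genes was -3.86, and mt-Nd4l had only 28 and 37 counts in the untreated EpH4-AS libraries. mt-Nd1, the subunit gene nearest the ribosomal RNA genes on the heavy-strand transcript, had 359 ± 29.8 CPM in untreated EpH4-AS against 734 ± 206 CPM in untreated EpH4 (SD, n = 2). mt-Nd2, the next mRNA on the same precursor, had 16.4 ± 0.875 CPM in untreated EpH4-AS against 544 ± 74.5 CPM in untreated EpH4, which is 33.2-fold lower. mt-Nd1 therefore made up 12.95 ± 1.02% of mt- counts in EpH4-AS with PM2.5 and 15.8 ± 0.126% in untreated EpH4-AS, against 3.03 ± 0.0801% in EpH4 with PM2.5 and 2.90 ± 0.420% in untreated EpH4. The most abundant of the 13, mt-Co1, a subunit of cytochrome c oxidase, had 961 ± 66.8 CPM in untreated EpH4-AS against 11951 ± 1248 CPM in untreated EpH4. mt-Nd6, the only mRNA of the light strand, was 1.63 ± 0.0305% of mt- counts in EpH4-AS with PM2.5 and 1.63 ± 0.0325% in untreated EpH4-AS, against 1.20 ± 0.00411% in EpH4 with PM2.5 and 1.12 ± 0.0927% in untreated EpH4. Adjoining mt- genes overlap in sequence (mt-Atp8 with mt-Atp6, mt-Nd4l with mt-Nd4, mt-Nd5 with mt-Nd6), and nuclear copies of mitochondrial DNA can share reads. Levels of single mt- genes are therefore less certain than the sum. Polyadenylated RNA had been sequenced, and how fully each mt- mRNA was captured was not tested.

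With PM2.5 the pattern differed in evenness. In EpH4 the log2 ratio of PM2.5 over untreated lay between 0.74 for mt-Co3 and 1.37 for mt-Nd3, with a median of 0.99. In EpH4-AS it lay between 0.04 for mt-Nd1 and 1.23 for mt-Nd4l, with a median of 0.42. The counts of mt-Nd4l were low there, at 81 and 87 with PM2.5 against 28 and 37 untreated. The libraries with PM2.5 and without overlapped in EpH4-AS for mt-Nd1, with 370 ± 57.4 CPM with PM2.5 against 359 ± 29.8 CPM untreated, and for mt-Nd3, with 6.89 ± 2.23 CPM against 4.89 ± 3.01 CPM (SD, n = 2).

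**Figure D2:**
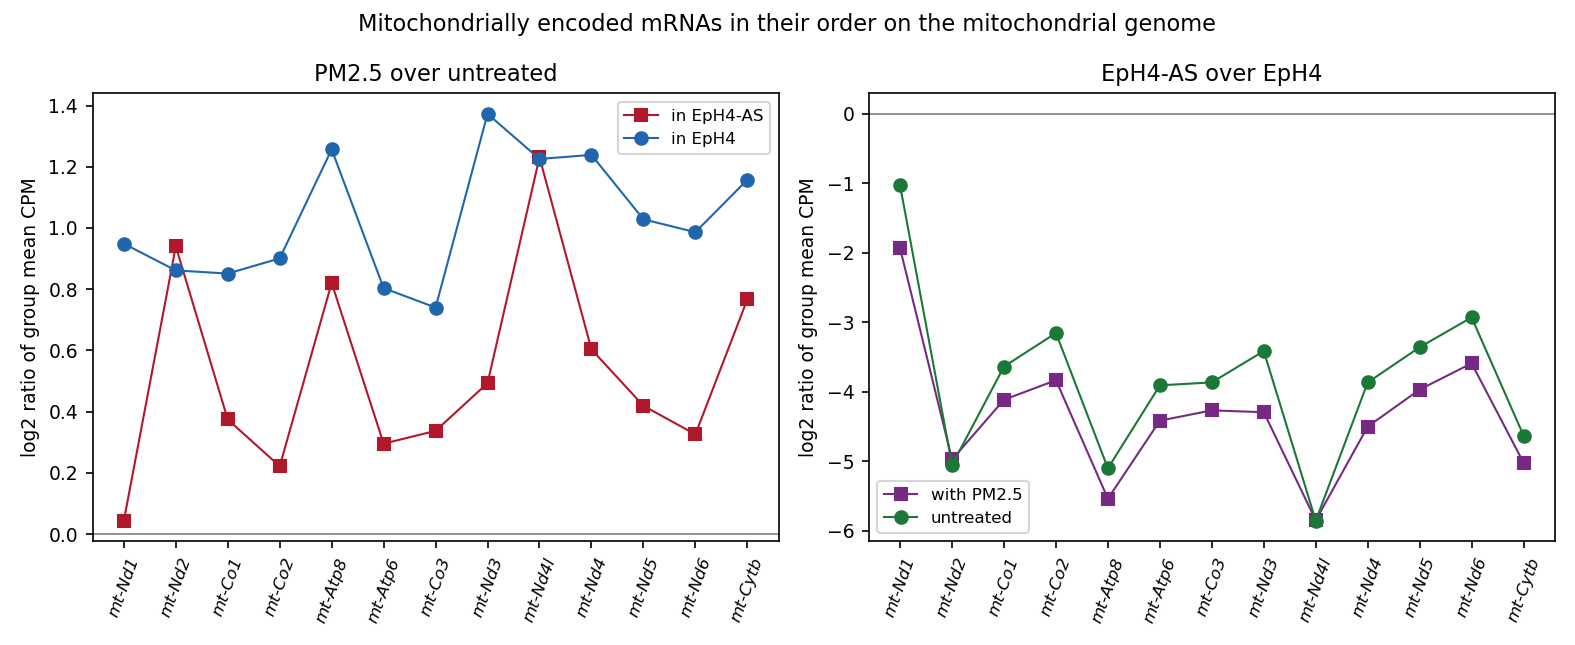
Log2 ratio of group mean CPM for each of the 13 mitochondrially encoded mRNAs, in their order on the mitochondrial genome, for PM2.5 over untreated (left) and EpH4-AS over EpH4 (right). Each point is 1 gene; in the right panel mt-Nd1 stands nearest to 0 in both conditions and mt-Nd4l farthest from it.

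The first comparison of the 10 regulators asked what PM2.5 changed in each line. In EpH4, where the mt- share was 1.88 times as high with PM2.5, 1 of 10 regulators fell, 0 rose and 9 did not pass the test at an adjusted p of 0.05. Over all 13716 tested genes the edgeR quasi-likelihood test called 27.2% in this comparison, 14.3% higher and 12.9% lower. In EpH4-AS 0 of 10 regulators were called by edgeR, with 3 at an unadjusted p under 0.05, where 11.1% of all genes were called, 6.39% higher and 4.75% lower. DESeq2 also called 0 of 10 there, and limma on log2(RPKM + 1) called 1, Ppargc1b. The median log2 change of the 10 was -0.04 in EpH4 and -0.09 in EpH4-AS, against 0.00 over all tested genes in each line. The test of the difference between the lines in their response to PM2.5 called 0 of 10 regulators. Of these, 3 were at an unadjusted p under 0.05. Over all genes this test called 14.1%, 7.60% with a higher response in EpH4-AS and 6.49% with a lower one. Ppargc1a adds nothing to that test or to the counts of regulators called in EpH4-AS, since its effect there cannot be measured at 0 counts. It enters the EpH4-AS median of the 10 at log2 0 for the same reason.

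The second comparison asked how the lines differed. Between untreated lines 6 regulators were higher and 2 lower in EpH4-AS, and 2 did not pass the test. With PM2.5 the numbers were again 6 higher, 2 lower and 2 not called. Ppargc1a, among the lower ones in both conditions, had passed the filter on low counts only through its EpH4 libraries. The lines differed in most genes: 89.2% of all tested genes were called between untreated lines, 43.6% higher and 45.7% lower in EpH4-AS, and 89.0% between lines with PM2.5, 43.5% higher and 45.5% lower. A count of 8 of 10 is therefore close to the share of all genes. The median log2 difference of the 10 was 0.72 untreated and 0.66 with PM2.5, against -0.05 and -0.04 over all tested genes.

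**Figure D3:**
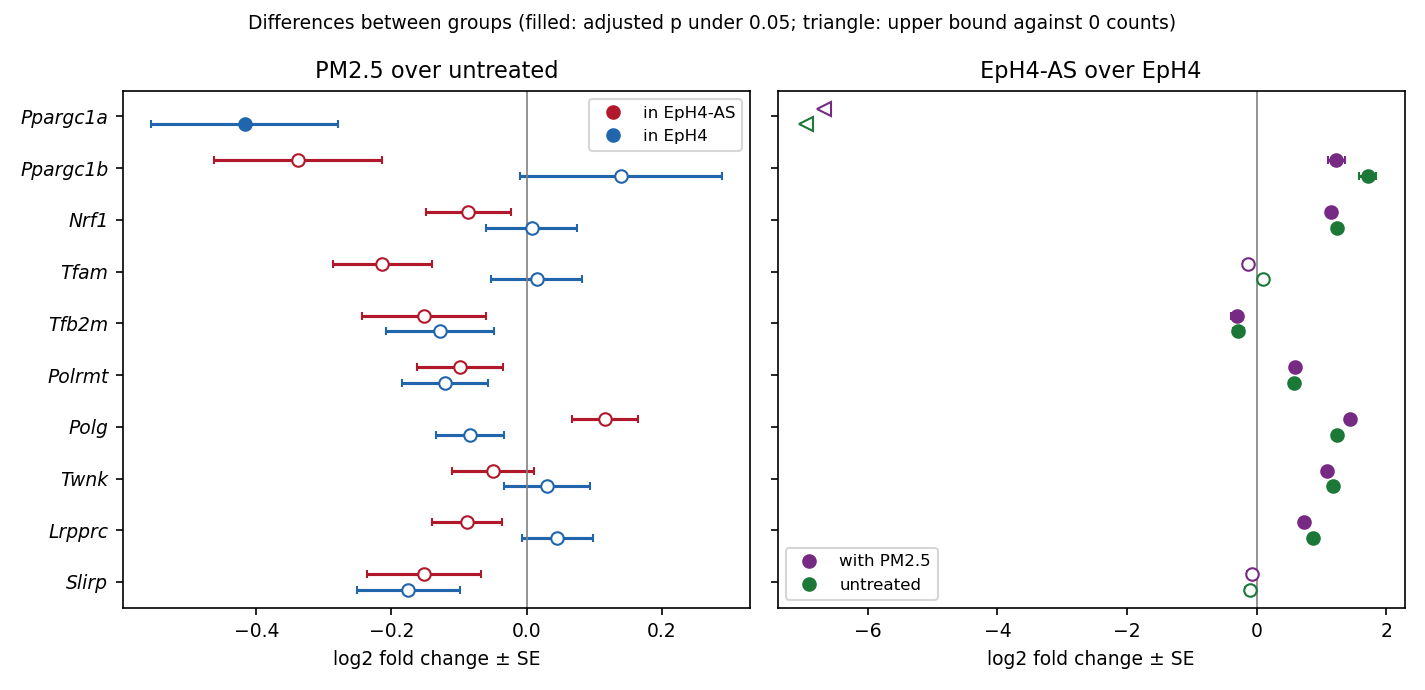
Log2 fold changes of the 10 regulators with their standard errors, for PM2.5 over untreated in each line (left) and EpH4-AS over EpH4 in each condition (right). Filled points passed an adjusted p of 0.05, and triangles give the upper bound for Ppargc1a, which had 0 counts in EpH4-AS; the 6 regulators called higher in EpH4-AS lie right of 0 in the right panel in both conditions, and Tfam lies right of 0 untreated without a call.

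Ppargc1a (ENSMUSG00000029167, chromosome 5, 51611592 to 51725068, GRCm39, minus strand), the coactivator PGC-1alpha, differed most between the lines. It had 0 counts in each of the 4 EpH4-AS libraries. EpH4 libraries had 225 and 209 counts with PM2.5 and 349 and 256 counts untreated, which is 8.57 and 8.59 CPM with PM2.5 against 12.7 and 10.2 CPM untreated. The lines did not overlap. A count of 0 allows up to 3 counts over a group, which is 0.0844 CPM in EpH4-AS with PM2.5 and 0.0925 CPM in untreated EpH4-AS. Against this floor Ppargc1a was at least 102-fold lower in EpH4-AS than in EpH4 with PM2.5, and at least 124-fold lower untreated. These fold limits cover counting error only. The edgeR test gave adjusted p values of 1.09e-09 with PM2.5 and 4.54e-10 untreated. Ppargc1a passed the filter on low counts only through its EpH4 libraries, so these p values add no support to the difference. Reads anywhere in the gene, introns included, numbered 1 and 0 in the libraries of EpH4-AS with PM2.5 and 0 and 2 in untreated EpH4-AS, against 271 and 241 in EpH4 with PM2.5 and 383 and 291 in untreated EpH4.

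Within EpH4, Ppargc1a was the only regulator that fell with PM2.5, with 8.58 ± 0.0121 CPM with PM2.5 against 11.4 ± 1.77 CPM untreated (SD, n = 2). Its log2 fold change was -0.42 ± 0.14 (SE), with an adjusted p of 0.0423 in the edgeR quasi-likelihood test. The call lies near the threshold: it was lost under 9 of 20 alternatives, among them the DESeq2 Wald test (adjusted p = 0.273), and over the alternatives the adjusted p ran from 0.00619 to 0.273. It was lost without untreated library 1 (log2 -0.25, adjusted p = 0.256), without PM2.5 library 1 (adjusted p = 0.123) and without PM2.5 library 2 (adjusted p = 0.142).

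Ppargc1b (ENSMUSG00000033871, chromosome 18), the coactivator PGC-1beta, stood the other way round between the lines. It had 10.4 and 11.7 CPM in EpH4-AS with PM2.5 and 14.2 and 13.8 CPM in untreated EpH4-AS, against 4.27 and 5.18 CPM in EpH4 with PM2.5 and 4.11 and 4.45 CPM in untreated EpH4. Both EpH4-AS groups lay above all EpH4 libraries. Between untreated lines it was 3.27-fold higher in EpH4-AS (log2 1.71 ± 0.13 SE, adjusted p = 1.19e-08, edgeR), and with PM2.5 2.35-fold higher (log2 1.23 ± 0.14, adjusted p = 6.33e-07). In EpH4 a large part of Ppargc1b reads lay outside exons, 53.2% with PM2.5 and 49.4% untreated, against 11.2% in EpH4-AS with PM2.5 and 12% in untreated EpH4-AS. On reads over the whole gene the line difference with PM2.5 was smaller, log2 0.57 (adjusted p = 0.000290), and still called.

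With PM2.5 the EpH4-AS libraries of Ppargc1b lay below the untreated ones (log2 -0.34 ± 0.12 SE), with an adjusted p of 0.0995 by edgeR. The call was gained when only the EpH4-AS libraries were fitted (adjusted p = 0.0244). In EpH4 the libraries overlapped (log2 0.14 ± 0.15, adjusted p = 0.533). The difference between the lines in this response was -0.48 ± 0.19 (adjusted p = 0.120), and on reads over the whole gene it was called, at -0.59 (adjusted p = 0.0248).

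Nrf1 (ENSMUSG00000058440, chromosome 6, 30047987 to 30153457, plus strand), the transcription factor nuclear respiratory factor 1, was higher in EpH4-AS. It had 66.3 and 70.9 CPM in EpH4-AS with PM2.5 and 74.3 and 71.3 CPM in untreated EpH4-AS, against 32.1 and 29.6 CPM in EpH4 with PM2.5 and 30.5 and 30.9 CPM in untreated EpH4. The lines did not overlap, and the log2 difference was 1.25 ± 0.06 SE untreated (adjusted p = 8.60e-11, edgeR) and 1.15 ± 0.06 with PM2.5 (adjusted p = 2.22e-10). In EpH4, 47.6% of Nrf1 reads with PM2.5 and 50.8% untreated lay outside exons, against 3.56% in EpH4-AS with PM2.5 and 2.85% in untreated EpH4-AS. On reads over the whole gene the line difference shrank to log2 0.51 untreated (adjusted p = 1.84e-05) and 0.53 with PM2.5 (adjusted p = 1.40e-05). Nrf1 did not pass the test with PM2.5 in either line, at log2 -0.09 ± 0.06 in EpH4-AS and 0.01 ± 0.07 in EpH4.

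**Figure D4:**
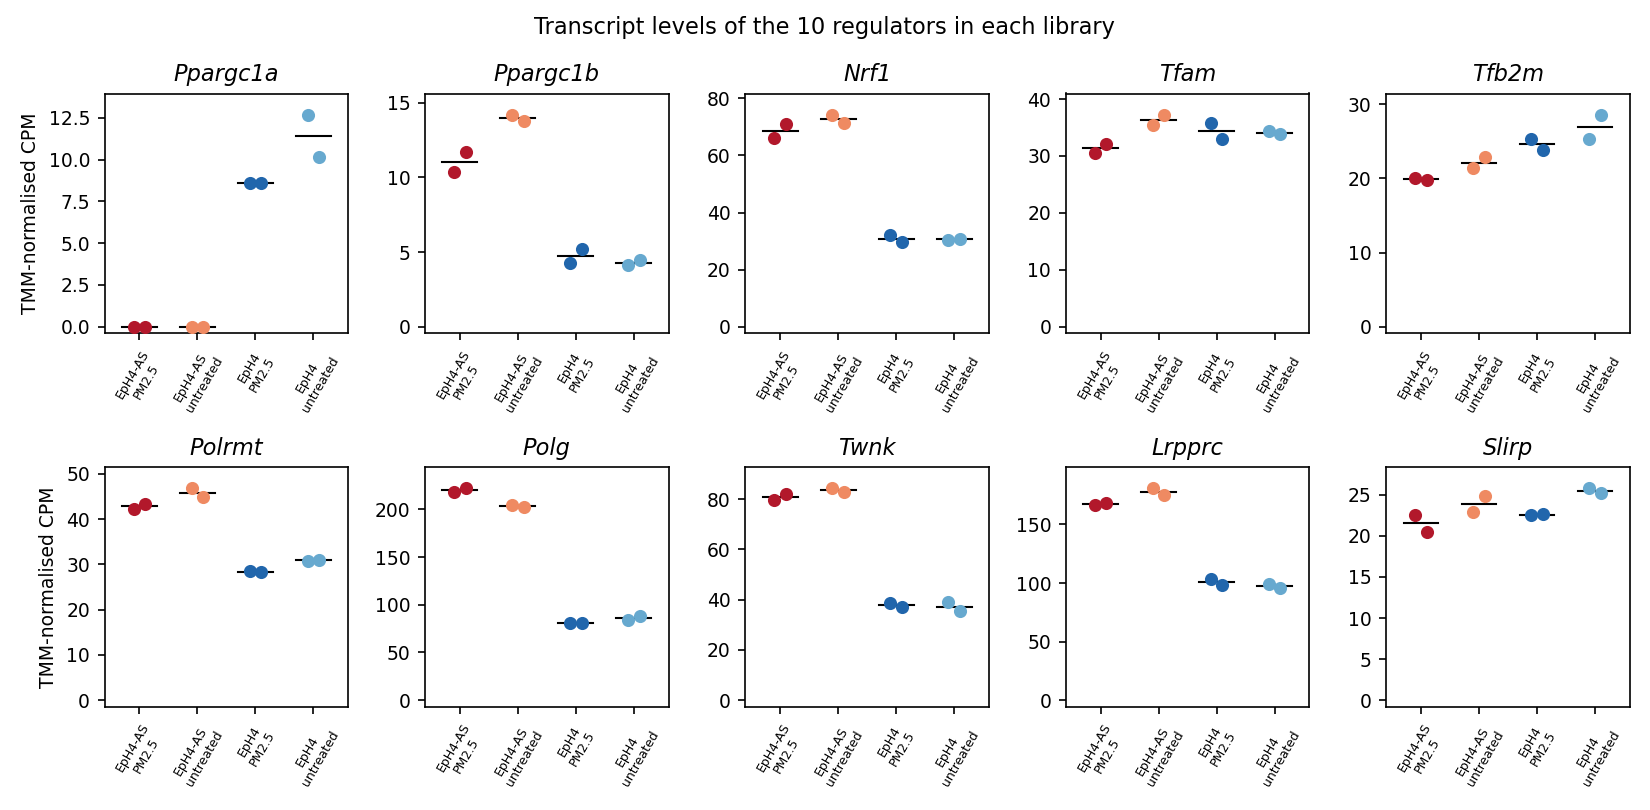
TMM-normalised CPM of each regulator in each library, with a bar for the mean of each group of 2 libraries and a separate scale for each gene. Ppargc1a is at 0 in the 4 EpH4-AS libraries, and Tfam and Slirp vary least between the group means.

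The mitochondrial transcription machinery did not move as one. Tfam (ENSMUSG00000003923, chromosome 10, 71061294 to 71074110, minus strand), which packages mitochondrial DNA and bends its promoters, had 30.5 and 32.1 CPM in EpH4-AS with PM2.5 and 35.5 and 37.2 CPM in untreated EpH4-AS, against 35.9 and 33.0 CPM in EpH4 with PM2.5 and 34.3 and 33.9 CPM in untreated EpH4. Within each condition the lines did not overlap, but untreated EpH4-AS lay above untreated EpH4 while EpH4-AS with PM2.5 lay below EpH4 with PM2.5. The line difference was log2 0.09 ± 0.07 SE untreated (adjusted p = 0.224, edgeR) and -0.14 ± 0.07 with PM2.5 (adjusted p = 0.0800). It was called higher between untreated lines on RPKM (log2 0.25 with a pseudocount of 1) and on reads over the whole gene (log2 0.23), and its sign with PM2.5 turned on RPKM. With PM2.5 it was called lower in EpH4-AS under the stricter filter (log2 -0.16, adjusted p = 0.0414) and without EpH4 PM2.5 library 2 (log2 -0.20, adjusted p = 0.0354). In EpH4-AS both libraries with PM2.5 lay below both untreated ones (log2 -0.21 ± 0.07, adjusted p = 0.0785), a call gained when only those 4 libraries were fitted (adjusted p = 0.0267).

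Tfb2m (ENSMUSG00000026492, chromosome 1, 179355620 to 179373832, minus strand), which opens the mitochondrial promoter for the polymerase, was the one member of the core transcription machinery that was lower in EpH4-AS. It had 20.0 and 19.8 CPM in EpH4-AS with PM2.5 and 21.4 and 22.8 CPM in untreated EpH4-AS, against 25.3 and 23.9 CPM in EpH4 with PM2.5 and 25.3 and 28.6 CPM in untreated EpH4. The lines did not overlap, and the log2 difference was -0.28 ± 0.09 SE untreated (adjusted p = 0.00596, edgeR) and -0.31 ± 0.09 with PM2.5 (adjusted p = 0.00379). The call between untreated lines was lost without EpH4 untreated library 2 (adjusted p = 0.0741), without EpH4-AS untreated library 1 (adjusted p = 0.0533) and on RPKM (adjusted p = 0.275 with a pseudocount of 1), and that with PM2.5 was lost on RPKM (adjusted p = 0.0896).

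Polrmt (ENSMUSG00000020329, chromosome 10, 79571957 to 79582415, minus strand), the RNA polymerase itself, was higher in EpH4-AS. It had 42.3 and 43.4 CPM in EpH4-AS with PM2.5 and 46.8 and 44.9 CPM in untreated EpH4-AS, against 28.5 and 28.4 CPM in EpH4 with PM2.5 and 30.8 and 31.0 CPM in untreated EpH4. This is 1.51-fold higher in EpH4-AS with PM2.5 (log2 0.59 ± 0.06 SE, adjusted p = 4.57e-07, edgeR) and 1.48-fold higher untreated (log2 0.57 ± 0.06, adjusted p = 6.25e-07). In both lines the libraries with PM2.5 lay below the untreated ones without passing the test, at log2 -0.10 ± 0.06 in EpH4-AS and -0.12 ± 0.06 in EpH4.

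Both replication genes were higher in EpH4-AS. Polg (ENSMUSG00000039176, chromosome 7, 79095979 to 79116110, minus strand), the catalytic subunit of the DNA polymerase, had 218 and 222 CPM in EpH4-AS with PM2.5 and 204 and 202 CPM in untreated EpH4-AS, against 81.2 and 80.9 CPM in EpH4 with PM2.5 and 83.9 and 87.9 CPM in untreated EpH4. It was 2.72-fold higher in EpH4-AS with PM2.5 (log2 1.44 ± 0.05 SE, adjusted p = 8.90e-13, edgeR) and 2.37-fold higher untreated (log2 1.24 ± 0.05, adjusted p = 4.38e-12). Among the 10, it was the one with its PM2.5 libraries above the untreated ones in EpH4-AS (log2 0.12 ± 0.05, adjusted p = 0.147) and below them in EpH4 (log2 -0.08 ± 0.05, adjusted p = 0.249). The difference in EpH4-AS was called when only the EpH4-AS libraries were fitted (adjusted p = 0.0358). The difference between these responses was 0.20 ± 0.07 (adjusted p = 0.0731). It was called without EpH4 untreated library 1 (0.24, adjusted p = 0.0377) and on reads over the whole gene (0.24, adjusted p = 0.0329).

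Twnk (ENSMUSG00000025209, chromosome 19, 44994102 to 45001201, plus strand), the Twinkle helicase, had 79.6 and 82.2 CPM in EpH4-AS with PM2.5 and 84.4 and 83 CPM in untreated EpH4-AS, against 38.7 and 37.2 CPM in EpH4 with PM2.5 and 39.0 and 35.3 CPM in untreated EpH4. The line difference was log2 1.17 ± 0.06 SE untreated (adjusted p = 1.18e-10, edgeR) and 1.09 ± 0.06 with PM2.5 (adjusted p = 2.69e-10). With PM2.5 it did not pass the test in either line. Twnk overlaps Mrpl43 on the opposite strand and Polg overlaps Fanci. Whether reads were counted by strand is not given in the sources used here, so reads of such pairs may be shared. Between the lines the summed counts of Fanci ran the same way as those of Polg. Fanci had 1156 in EpH4-AS with PM2.5 and 954 in untreated EpH4-AS, against 514 in EpH4 with PM2.5 and 303 in untreated EpH4. Within EpH4 the Polg sum ran the other way, at 4099 with PM2.5 against 4519 untreated. Between the lines the summed counts of Mrpl43 ran opposite to those of Twnk. Mrpl43 had 671 in EpH4-AS with PM2.5 and 614 in untreated EpH4-AS, against 1921 in EpH4 with PM2.5 and 2186 in untreated EpH4. These sums were not scaled to total counts, which were larger in EpH4.

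The partners of the mRNA-stabilising complex differed from each other. Lrpprc (ENSMUSG00000024120, chromosome 17, 85012675 to 85098217, minus strand), the large RNA-binding subunit, had 166 and 168 CPM in EpH4-AS with PM2.5 and 181 and 175 CPM in untreated EpH4-AS, against 104 and 98.0 CPM in EpH4 with PM2.5 and 99.5 and 95.7 CPM in untreated EpH4. It was higher in EpH4-AS by log2 0.87 ± 0.05 SE untreated (adjusted p = 4.84e-10, edgeR) and 0.73 ± 0.05 with PM2.5 (adjusted p = 3.57e-09). Slirp (ENSMUSG00000021040, chromosome 12, 87490666 to 87498976, plus strand), its small partner, had 22.5 and 20.5 CPM in EpH4-AS with PM2.5 and 22.9 and 24.9 CPM in untreated EpH4-AS, against 22.5 and 22.7 CPM in EpH4 with PM2.5 and 25.8 and 25.2 CPM in untreated EpH4. The line difference of Slirp was log2 -0.10 ± 0.08 untreated (adjusted p = 0.266) and -0.07 ± 0.08 with PM2.5 (adjusted p = 0.408), and its sign turned on RPKM and on reads over the whole gene. In both lines the Slirp libraries with PM2.5 lay below the untreated ones without passing the test, at log2 -0.15 ± 0.08 in EpH4-AS (adjusted p = 0.291) and -0.18 ± 0.08 in EpH4 (adjusted p = 0.107). Slirp overlaps Alkbh1 and Snw1 on the opposite strand.

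**Figure D5:**
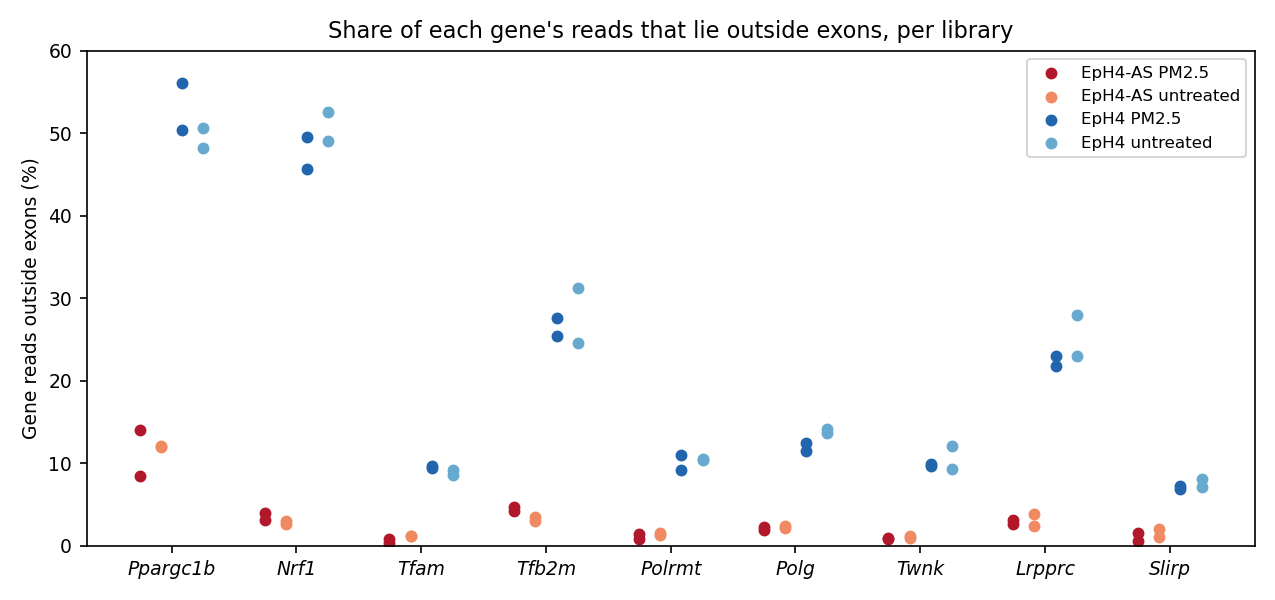
Share of each gene's reads that lie outside its exons, in percent, for 9 regulators in each library; Ppargc1a is left out because EpH4-AS had almost no reads. EpH4 points lie above EpH4-AS points for every gene shown, most widely for Ppargc1b and Nrf1.

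All 9 regulators with reads in both lines had a larger share of reads outside exons in EpH4. The per-library shares of the 9 genes in EpH4-AS ran from 0.337% to 14.0% with PM2.5 and from 0.980% to 12.1% untreated, and the lowest shares in EpH4 were 6.93% with PM2.5 and 7.07% untreated. The part of this difference in the line comparisons was not tested beyond the values on reads over the whole gene given above, where all 8 calls between lines remained in both conditions.

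Per length, Lrpprc had the highest level of the 10 in every group. In RPKM, the authors' read counts scaled to gene length and library size, it had 35.3 ± 0.484 in EpH4-AS with PM2.5, 38.4 ± 0.546 in untreated EpH4-AS, 19.0 ± 0.550 in EpH4 with PM2.5 and 18.4 ± 0.811 in untreated EpH4 (SD, n = 2). In both EpH4-AS groups Polg and Twnk followed, at 23.4 ± 0.0850 and 19.8 ± 0.0346 RPKM untreated, then Polrmt and Nrf1, whose libraries overlapped, then Tfb2m, then Tfam and Slirp, whose libraries overlapped, then Ppargc1b, with Ppargc1a at 0. In both EpH4 groups Tfb2m stood next to Lrpprc, at 9.08 ± 0.644 RPKM untreated, overlapping Polg at 8.63 ± 0.143 RPKM. Twnk followed, then Tfam, Polrmt and Slirp, which lay between 6.03 and 6.79 RPKM on average over both groups, then Nrf1. Ppargc1a and Ppargc1b were lowest in EpH4, at 1.08 ± 0.0119 and 1.05 ± 0.153 RPKM with PM2.5, where their libraries overlapped, and at 1.44 ± 0.246 and 0.947 ± 0.0385 RPKM untreated. Among the 10, the mean log2 CPM of the groups spanned 6.94 for Ppargc1a and 0.21 for Tfam. The 5 genes with the highest Pearson r to Ppargc1a on log2 CPM over the 8 libraries were 1700028J19Rik, Stxbp4, Erlin2, Ndufa2 and Ift172. As 1502 genes had an r over 0.99 and the libraries fall into 2 clusters by line, this likeness is mostly that of the lines.

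Other genes of the same pathways were taken from 7 lists, 106 genes of which 104 were tested. Between untreated lines 53 of 104 were higher and 35 lower in EpH4-AS, and with PM2.5 54 were higher and 31 lower. Over all tested genes 89.2% and 89.0% were called in these comparisons, so the share of list genes called was not above the background. With PM2.5, 9 of 104 rose and 2 fell in EpH4-AS, where 11.1% of all genes were called, and 9 rose and 15 fell in EpH4, where 27.2% were. Taken over both directions, neither count exceeded the background. By direction, the 9 that rose in EpH4-AS and the 15 that fell in EpH4 were slightly above the shares of all genes. The 2 that fell in EpH4-AS and the 9 that rose in EpH4 were below them. The counts of single lists below are descriptions of small numbers of genes, to be read against the same shares: 43.6% of all genes higher and 45.7% lower between untreated lines, 6.39% higher and 4.75% lower with PM2.5 in EpH4-AS, and 14.3% higher and 12.9% lower with PM2.5 in EpH4. Of 12 further genes of mitochondrial transcription and the nucleoid, 9 were higher and 1 lower in untreated EpH4-AS, where 43.6% and 45.7% of all genes were, with a median log2 difference of 0.70. Tfb1m, which methylates mitochondrial ribosomal RNA, had 29.4 ± 3.30 CPM in untreated EpH4-AS against 9.57 ± 0.688 CPM in untreated EpH4 (log2 1.62 ± 0.10 SE, adjusted p = 8.14e-10, edgeR). Mterf4, a partner in ribosome assembly, was higher by log2 1.48, and Clpx, a chaperone of the mitochondrial protease, by 0.84. In EpH4, 1 of the 12 fell with PM2.5, the protease gene Lonp1 (log2 -0.24 ± 0.06, adjusted p = 0.00629), and 0 of 12 were called in EpH4-AS.

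Genes of replication and nucleotide supply went both ways between the lines: of 14, 5 were higher and 9 lower in untreated EpH4-AS. Slc25a36, a carrier of pyrimidine nucleotides, had 12 ± 0.680 CPM in untreated EpH4-AS against 152 ± 9.82 CPM in untreated EpH4 (log2 -3.66 ± 0.09 SE, adjusted p = 1.32e-14, edgeR). Rrm2b, a ribonucleotide reductase subunit that supplies deoxynucleotides outside S phase, had 7.16 ± 1.95 CPM against 87.1 ± 10.6 CPM (log2 -3.61 ± 0.13). Lig3, the mitochondrial DNA ligase, was higher by log2 1.61 ± 0.05. With PM2.5 in EpH4, 5 of the 14 fell, where 12.9% of all genes did, including Tk2, the mitochondrial thymidine kinase (log2 -0.36 ± 0.07, adjusted p = 0.00238), Mgme1 and Rrm2b. Dna2, a nuclease and helicase, rose (log2 0.55 ± 0.12, adjusted p = 0.00345). In EpH4-AS 1 rose, the primase gene Primpol (log2 0.54 ± 0.14, adjusted p = 0.0224).

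Of 22 genes that process, polyadenylate, stabilise or degrade mitochondrial RNA, 14 were higher and 5 lower in untreated EpH4-AS, where 43.6% and 45.7% of all genes were. Rexo2, an exonuclease that clears short RNA fragments, had 223 ± 2.01 CPM in untreated EpH4-AS against 36.1 ± 1.25 CPM in untreated EpH4 (log2 2.63 ± 0.05 SE, adjusted p = 4.47e-15, edgeR). Hsd17b10, a subunit of mitochondrial RNase P, was higher by log2 1.90, Dhx30, an RNA helicase of RNA granules, by 1.87, and Supv3l1, the helicase of the RNA degradation complex, by 1.51. With PM2.5, 2 of 22 rose and 0 fell in each line: Rexo2 (log2 0.25 ± 0.05, adjusted p = 0.00533) and Tbrg4 in EpH4-AS, and Ptcd3 (log2 0.25 ± 0.06, adjusted p = 0.00521) and Trmt10c in EpH4.

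Of 17 tested nuclear regulators of mitochondrial biogenesis, 6 were higher and 5 lower in untreated EpH4-AS. Sirt1, a deacetylase that acts on PGC-1alpha, had 44.1 ± 0.211 CPM in untreated EpH4-AS against 2.74 ± 0.498 CPM in untreated EpH4 (log2 4.0 ± 0.12 SE, adjusted p = 1.75e-13, edgeR). Ppara, a nuclear receptor that PGC-1alpha coactivates, had 9.52 ± 0.323 CPM in untreated EpH4-AS and 0 counts in untreated EpH4, at least 167-fold higher by the floor of 3 counts over the group. Gabpb2, a subunit of GABP, was lower (log2 -1.50 ± 0.07), at 38.5 ± 1.21 CPM in untreated EpH4-AS against 109 ± 4.10 CPM in untreated EpH4. With PM2.5, 3 rose and 1 fell in EpH4: Esrra, a receptor that works with PGC-1alpha, rose (log2 0.36 ± 0.07, adjusted p = 0.00165), as did Sirt1 (log2 0.65 ± 0.16) and Ppard (log2 0.19 ± 0.05), and Pprc1, a relative of PGC-1alpha, fell (log2 -0.17 ± 0.05, adjusted p = 0.0303). In EpH4-AS, Gabpb1 rose (log2 0.59 ± 0.07, adjusted p = 0.000123), as did Ppard (log2 0.20 ± 0.06), and Ncor1 and Perm1 fell.

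Of 14 mitochondrial translation factors, 6 were higher and 6 lower in untreated EpH4-AS, led by Tufm, the elongation factor Tu (log2 2.38 ± 0.06 SE, adjusted p = 1.51e-14, edgeR). With PM2.5, 2 rose and 2 fell in EpH4, and 0 of 14 were called in EpH4-AS. Of 17 nuclear genes used as markers of mitochondrial mass, 8 were higher and 7 lower in untreated EpH4-AS, with a median log2 difference of -0.06, close to that of all tested genes. Sdha, a subunit of respiratory complex II, had 632 ± 12.4 CPM in untreated EpH4-AS against 169 ± 1.03 CPM in untreated EpH4 (log2 1.91 ± 0.05, adjusted p = 7.67e-14). Vdac1, an outer membrane channel, had 221 ± 6.54 CPM against 651 ± 33.0 CPM (log2 -1.56 ± 0.07). With PM2.5, 3 of the 17 rose in EpH4-AS, Tomm20 (log2 0.50 ± 0.06, adjusted p = 0.000188), Timm23 and Vdac2, and 0 fell. In EpH4, citrate synthase Cs rose (log2 0.26 ± 0.05, adjusted p = 0.00202) and Hspa9 and Vdac1 fell.

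Of 9 mitophagy genes, 6 were higher and 2 lower in untreated EpH4-AS. Pink1, the kinase that marks damaged mitochondria, had 88.9 ± 1.91 CPM in untreated EpH4-AS against 33.2 ± 2.59 CPM in untreated EpH4 (log2 1.42 ± 0.07 SE, adjusted p = 2.62e-11, edgeR). Bnip3, a mitophagy receptor of the outer membrane, had 214 ± 8.30 CPM against 1136 ± 89.5 CPM (log2 -2.41 ± 0.08). With PM2.5, 4 of the 9 fell in EpH4, where 12.9% of all genes did: Bnip3 (log2 -0.51 ± 0.08, adjusted p = 0.000323), Bnip3l (log2 -0.48 ± 0.07), Pink1 (log2 -0.33 ± 0.07) and Optn (log2 -0.18 ± 0.06, adjusted p = 0.0478). In EpH4-AS, 1 rose, the receptor Optn (log2 0.53 ± 0.06, adjusted p = 4.68e-05).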

How the data were processed

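Per the labels' protocols, libraries were made from polyadenylated RNA with a stranded kit, and the labels give 1 batch for all of them. The authors deposited raw read counts per gene, used as deposited, on GRCm39 per the submitters' processing notes. RPKM and total gene reads were also deposited by the authors, and total gene reads less counts gave each gene's share outside exons. The sources used here do not give the aligner, the counter or the strand setting.

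The filter filterByExpr kept 13716 of 25413 genes. Total counts ran from 15393256 to 27765982 per library. After TMM scaling, edgeR 4.0.16 in R 4.3.3 fitted a quasi-likelihood model with 1 mean for each of 4 groups, 4 residual degrees of freedom and a common dispersion of 0.00218. P values were two-sided and adjusted per contrast by Benjamini-Hochberg over all tested genes, with a threshold of 0.05. Standard errors were derived as absolute log2 fold change divided by the root of F. The fitting was tested on simulated data. CPM are TMM-normalised, with a prior count of 2 on the log2 scale.

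The 10 regulators and the 7 lists were chosen with earlier results of these data known. All 10 were named, and up to 4 genes of each list with the smallest adjusted p in a comparison; a gene so named may carry values in other comparisons too. Same-numbered libraries of the groups deviated with correlations from -0.101 to 0.0646, which shows no strong shared deviation. With 2 libraries per group this cannot settle whether the numbers pair the libraries, and the main fit treats them as unpaired. Alternatives were DESeq2 size factors, TMM without mt- genes, unscaled library totals, a DESeq2 1.42.0 Wald test, no filter, a filter of 1 CPM in 2 libraries, a replicate block, fits of 2 groups, limma 3.58.1 on log2(RPKM + 1) and log2(RPKM + 0.1), and each library left out. Where 1 library remained, its variability was taken from the other groups. After the data were seen, fits of total gene reads and of a crossed replicate block were added.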

Additional observations from a re-analysis of the deposited data

Results flagged for a closer look

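None of the 10 regulators differed between the lines in its response to PM2.5 past the threshold of the edgeR quasi-likelihood test. Ppargc1a could not be measured in EpH4-AS. Of the 104 tested genes of the pathway lists 15 were called, close to the 14.1% of all tested genes. The response in EpH4-AS was higher for 13 of them and lower for 2, against 7.60% and 6.49% of all tested genes. The values are the log2 response in EpH4-AS minus that in EpH4. Among mitophagy genes it was 0.71 for Optn (adjusted p = 0.000155), 0.70 for Bnip3 (adjusted p = 0.00108) and 0.51 for Bnip3l (adjusted p = 0.00593). Among mass markers it was 0.57 for Tomm20 (adjusted p = 0.000621), 0.50 for Hspa9 (adjusted p = 0.00401), 0.40 for Timm23 (adjusted p = 0.00567), 0.34 for Vdac1 (adjusted p = 0.0404) and 0.23 for Vdac2 (adjusted p = 0.0465). Among replication genes it was 0.73 for Primpol (adjusted p = 0.00780), 0.44 for Tk2 (adjusted p = 0.0222) and 0.47 for Exog (adjusted p = 0.0415). Among biogenesis regulators it was 0.51 for Gabpb1 (adjusted p = 0.00250), 0.29 for Pprc1 (adjusted p = 0.0221), -0.62 for Sirt1 (adjusted p = 0.0367) and -0.31 for Esrra (adjusted p = 0.0481).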

How the results depend on the processing

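Of 951 recomputed member values, 889 kept their direction and side of the threshold, 15 lost a call, 12 gained one and 35 changed sign; the cause was not tested. With PM2.5 in EpH4, the number of regulators called was 0, in place of 1, with library totals, the DESeq2 Wald test, the replicate block, total gene reads, 2 groups only and log2(RPKM + 0.1), and 0 to 1 with a library left out. In EpH4-AS it was 3 with 2 groups only and 1 on log2(RPKM + 1), in place of 0. For the difference between lines in their response to PM2.5, among fits with all 8 libraries, it was 2 on total gene reads. The Polg value for this difference without EpH4 untreated library 1 is given above. The crossed replicate block changed no count of regulators. On RPKM the mt- share was 0.794% in EpH4-AS with PM2.5 and 0.671% untreated, and 11.2% in EpH4 with PM2.5 and 6.02% untreated. On RPKM the median line difference of all genes was 0.10 untreated with a pseudocount of 1 and 0.14 with 0.1, against -0.05 on counts.

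Sign changes of log2 values with PM2.5 in EpH4 were -0.00091 (TMM without mt- genes), -0.0079 (no filter), -0.096 (total gene reads) and -0.0016 (2 groups only) for Nrf1, -0.00015 (no filter) for Tfam and -0.028 (total gene reads) for Lrpprc. With a library left out the values were -0.0039 to 0.28 for Ppargc1b, -0.053 to 0.063 for Nrf1, -0.046 to 0.071 for Tfam and -0.037 to 0.10 for Twnk. Between untreated lines Slirp was 0.064 on total gene reads, 0.089 on log2(RPKM + 1) and 0.10 on log2(RPKM + 0.1). With PM2.5 Slirp was 0.098, 0.078 and 0.089 in that order, and -0.12 to 0.0039 with a library left out. Tfam with PM2.5 was 0.023 on log2(RPKM + 1) and 0.026 on log2(RPKM + 0.1). For the difference between lines in their log2 response to PM2.5, Nrf1 was 0.016 and Tfb2m 0.038 on total gene reads. In the same difference Polrmt was -0.013 (library totals), -0.017 and -0.012 (RPKM), and Slirp -0.011 in each of these. With a library left out Tfb2m was -0.12 to 0.066 and Slirp -0.020 to 0.11.

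With the DESeq2 Wald test the list genes called with PM2.5 were 15 in EpH4 and 7 in EpH4-AS, in place of 24 and 11. For the difference between lines in their response to PM2.5 they were 9, in place of 15, and also 9 on log2(RPKM + 0.1). With a library left out these fell to as few as 3 in EpH4-AS and 8 for the difference. With 2 groups only, 24 were called in EpH4-AS. Over all genes, 2330 were called by DESeq2 with PM2.5 in EpH4, in place of 3726, and 2995 in EpH4-AS with 2 groups only, in place of 1529. With a library left out, some fits called fewer genes in EpH4, in EpH4-AS and for the difference between lines in their response to PM2.5.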
